A study of Saccharomyces cerevisiae with 17 samples.

Results

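The cytosolic ribosomal protein genes of Saccharomyces cerevisiae were followed across 17 RNA sequencing libraries. The members were all features of the deposited table whose names are those of large-subunit (RPL), small-subunit (RPS) or stalk (RPP) ribosomal protein genes, which gave 137 genes among 7125 features. Of these, 76 were large-subunit, 56 small-subunit and 5 stalk genes. A total of 118 genes formed 59 pairs of A and B copies and 19 were single-copy, and 89 held an intron in the reference annotation (RefSeq, R64 assembly). The study from which the libraries come addressed how expression of phosphate genes varies between yeast cells and the parts that alternative transcription, 14-3-3 protein and Spl2 play in it.

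All strains carry the BY4741 background, a laboratory haploid (mating type a) with deletions in genes for histidine, leucine, methionine and uracil synthesis. Cultures grown with 7.2 mM potassium phosphate were washed and kept for 60 min in medium with 0 mM or 7.2 mM phosphate. Experiment 1 held 3 libraries of BY4741 at 0 mM, 3 of the spl2 deletion at 0 mM, 2 of the spl2 deletion at 7.2 mM, 1 of the bmh1 deletion (which lacks a 14-3-3 gene) at 7.2 mM, and 3 of BY4741 at 7.2 mM. Experiment 2 held 2 libraries of the rrp6 deletion, which lacks the exonuclease of the nuclear exosome, and 1 of BY4741. Experiment 3 held 1 library of BY4741 ΔP, which lacks block P of the SPL2 promoter, and 1 of BY4741. The libraries of experiments 2 and 3 were all at 7.2 mM. The series text gives 3 spl2 deletion cultures with phosphate and 2 without, the sample labels give the opposite, and here the samples are grouped by their labels.

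The libraries held 17456154 to 44667485 reads, recovered from the deposited values. Values are RPM, the reads of a gene scaled to a common library total. The SPL2 gene stood at 0, 0.210 and 0.0247 RPM in the spl2 deletion at 0 mM and at 0 RPM in both libraries at 7.2 mM, against 287 to 308 RPM in BY4741 at 0 mM and 20.2 to 21.0 RPM at 7.2 mM. BMH1 stood at 1.46 RPM in the bmh1 deletion, against 957 to 1051 RPM in BY4741 at 7.2 mM, and RRP6 at 0 RPM in both rrp6 deletion libraries, against 57.8 RPM in BY4741 of that experiment. All 5 marker genes of mating type a were present in all 17 libraries, from ASG7 at 20.2 to 72.5 RPM to STE2 at 420 to 624 RPM. The marker genes of mating type alpha were also above 0 in all 17, so presence alone does not separate the types. SAG1 stood at 17.5 to 44.2 RPM and STE3 at 3.56 to 11.9 RPM. MF(ALPHA)1 stood at 0.134 to 0.565 RPM and MF(ALPHA)2 at 0.0672 to 8.90 RPM. LEU2, MET17 and URA3 stood at 0. HIS3 stood at 158 to 223 RPM. Each library counts as 1 culture by the series text, so p-values measure the spread between cultures.

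A yeast ribosome is built from ribosomal RNA and a fixed set of proteins, and most of these proteins are encoded by paired genes kept since an ancient genome duplication. In growing cells these genes are among the most strongly transcribed of the genome, and their promoters are bound by Rap1 together with Fhl1, Ifh1 and Sfp1 under control of the TOR and protein kinase A pathways. Their transcription falls when growth slows. Ribosomal protein genes also hold a large share of the introns of this intron-poor genome, and several of their proteins, among them those of RPL30, RPS14B and RPL22B, are known to bind their own transcripts.

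The level of the members was compared per length, as RPM per kb of coding sequence, in BY4741 at 7.2 mM of experiment 1. RPS31, which encodes a small-subunit protein fused to ubiquitin, was highest with 27058 ± 2902 RPM per kb (SD, n = 3), and RPS12 followed with 19815 ± 1857 RPM per kb. RPL15B was lowest with 144 ± 4.99 RPM per kb, 188-fold below RPS31. The median level was 4489.8 RPM per kb over all members, 3985 over the large-subunit genes, 5113 over the small-subunit genes and 5150.4 over the stalk genes. The 2 shortest members, RPL41A and RPL41B, have a coding length of 78 bases, shorter than the inserts that the libraries were size-selected for. RPL41A stood at 109.7, 91.1 and 95.1 RPM in BY4741 at 7.2 mM and RPL41B at 185, 163 and 208 RPM in BY4741 at 7.2 mM. Their coding sequences are shown because a single base separates the pair, so that reads from within it can hardly be assigned to a copy. The difference, in capitals, is C9T (RPL41A base, position counted from 1 at the A of the start codon, RPL41B base). RPL41A lies at chrIV:130407-130484 and RPL41B at chrIV:221724-221801, both on the minus strand of R64.
RPL41A: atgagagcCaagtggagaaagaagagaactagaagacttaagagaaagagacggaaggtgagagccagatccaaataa
RPL41B: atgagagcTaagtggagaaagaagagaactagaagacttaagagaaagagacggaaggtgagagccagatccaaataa

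The members together took between 24.2% and 41.3% of the reads of a library. In experiment 1 the share was 25.9%, 26.3% and 24.4% in BY4741 at 0 mM, 24.2%, 24.3% and 24.9% in the spl2 deletion at 0 mM, 33.8% and 32.7% in the spl2 deletion at 7.2 mM, 39.9% in the bmh1 deletion and 33.2%, 30.1% and 33.3% in BY4741 at 7.2 mM. The libraries without phosphate thus lay below all libraries with phosphate of the same experiment, and the bmh1 deletion library lay above them. In experiment 2 the share was 41.3% and 39.7% in the rrp6 deletion, against 39.1% in BY4741. In experiment 3 it was 29.9% in the ΔP strain, against 30.9% in BY4741. The ratio of large-subunit to small-subunit reads was between 1.09 and 1.17 in the 17 libraries. It was 1.09, 1.09 and 1.11 in BY4741 at 0 mM, against 1.12, 1.14 and 1.11 in BY4741 at 7.2 mM. In the spl2 deletion it was 1.10, 1.12 and 1.11 at 0 mM, against 1.13 and 1.13 at 7.2 mM. Before rounding, the 2 phosphate levels did not overlap in either strain. The A copies took between 53.8% and 54.9% of the reads of the 59 pairs. RPM are shares, so a lower level of these genes and a higher level of the other genes of a library cannot be told apart from them, nor can fewer cells and less RNA per cell.

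**Figure D1:**
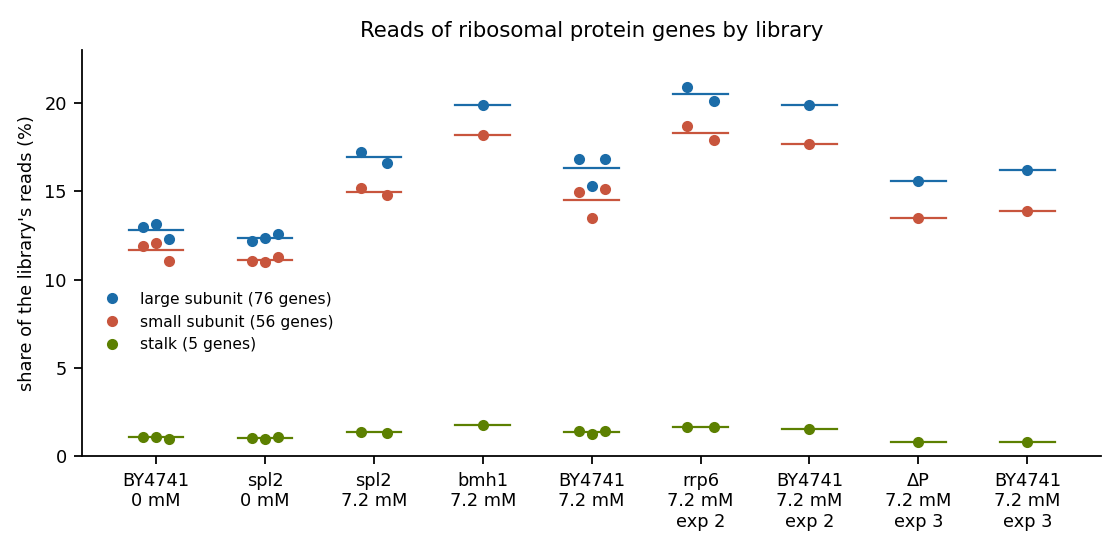
Share of each library's reads, in percent, that fell on large-subunit, small-subunit and stalk genes. Each point is 1 library and each line the mean of its group; large-subunit genes took 12.8% on average in BY4741 at 0 mM, against 16.3% in BY4741 at 7.2 mM.

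Without phosphate, ribosomal protein transcripts were lower in BY4741. Of the 137 members, 123 fell and 1 rose past the adjusted p threshold of 0.05, where 6.68% of all 6015 features tested were lower and 60.9% were higher. The median log2 fold change, on the scale of log2(RPM + 1), was -0.34 over the members and 0.21 over all features. By subunit, 68 of 76 large-subunit genes, 50 of 56 small-subunit genes and all 5 stalk genes fell, with medians of -0.35, -0.34 and -0.33. All 3 libraries at 0 mM lay below all 3 at 7.2 mM for 115 members, where 7.23% of all features did so. With TMM scaling, which lowered the fold changes of the members by 0.21, 128 members fell and none rose. The shares of all features, here and in the other comparisons, are for RPM and do not apply to counts with another scaling.

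RPS26B, which encodes a protein near the path by which mRNA leaves the small subunit, changed most. It stood at 1075, 1098 and 986 RPM in BY4741 at 0 mM, against 1635, 1442 and 1574 RPM in BY4741 at 7.2 mM. RPS9B, whose protein binds early in small-subunit assembly, stood at 2374, 2436 and 2373 RPM in BY4741 at 0 mM, against 3606, 3373 and 3560.3 RPM in BY4741 at 7.2 mM. The groups did not overlap for either gene, with log2 fold changes of -0.56 ± 0.062 (SE, adjusted p = 4.29e-06) and -0.55 ± 0.051 (SE, adjusted p = 5.56e-07). Among large-subunit genes RPL20A stood at 1300.3, 1317 and 1258 RPM in BY4741 at 0 mM, against 1932, 1809 and 1923 RPM in BY4741 at 7.2 mM. RPL25, whose protein sits at the exit of the peptide tunnel, stood at 3808, 3947 and 3294 RPM in BY4741 at 0 mM, against 5703, 4802 and 5562 RPM in BY4741 at 7.2 mM. Here too the groups were apart, with log2 fold changes of -0.55 ± 0.048 (SE, adjusted p = 3.89e-07) and -0.54 ± 0.084 (SE, adjusted p = 7.24e-05). RPS19B had a log2 fold change of -0.53, and the 5 stalk genes lay between -0.49 and -0.33.

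A single member rose. RPL15B, the minor copy of a large-subunit pair, stood at 105, 104 and 101 RPM in BY4741 at 0 mM, against 90.3, 84.8 and 90.0 RPM in BY4741 at 7.2 mM. Its log2 fold change was 0.22 ± 0.049 (SE, adjusted p = 0.00118), close to the median of all features, and with TMM scaling it was 0.01 and did not pass. The next highest were RPL7B at 0.07 and RPS28A at 0.02, neither of which passed. The other members that did not pass were RPL39, RPL38, RPS27A, RPS28B, RPL37B, RPL41A, RPL41B, RPL9B, RPS30A, RPS30B and RPS17A, with log2 fold changes between -0.25 and -0.03.

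**Figure D2:**
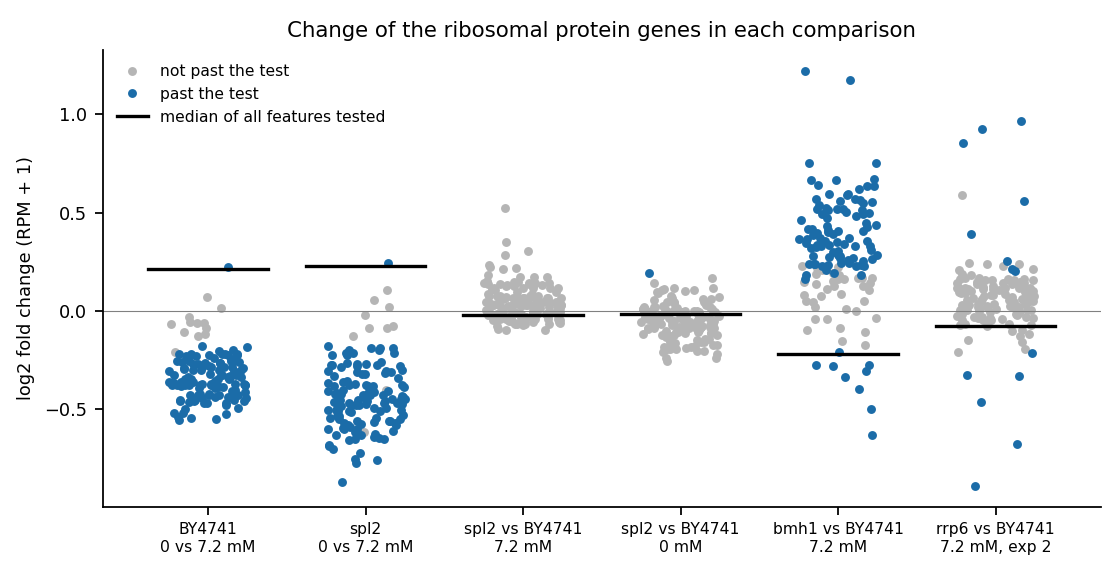
Log2 fold change of log2(RPM + 1) of the 137 members in 6 comparisons; each point is 1 gene, blue where it passed the limma test, and the black line is the median of all features tested. In both phosphate comparisons nearly all members lie below 0 while the median of all features is 0.21 in BY4741 and 0.23 in the spl2 deletion.

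Of 18 genes that regulate ribosomal protein transcription, 13 rose and none fell in BY4741 without phosphate, where 60.9% of all features rose, and the median log2 fold change was 0.22, against 0.21 over all features. CBF1, a DNA-binding factor, rose by 1.14, STB3 by 0.40, the corepressor CRF1 by 0.35, RAP1 by 0.34 and FHL1 by 0.31 on the log2 scale, whereas the coactivator genes IFH1 and SFP1 had values of 0.13 and 0.12 that did not pass. Of 18 tested chaperones of ribosomal proteins and nascent chains, 1 rose and 3 fell, the nascent-chain complex genes EGD1 at -0.32 and EGD2 at -0.21 and the Hsp70 gene SSB1 at -0.19, and the median was -0.06. Of 25 tested translation factors, 3 rose and 6 fell, among them ANB1 at -0.38 and the elongation factor gene EFB1 at -0.25, and the median was -0.03. ASC1, whose protein sits on the head of the small subunit but whose name lies outside the RPS series, fell by 0.39, and STM1, whose protein clamps idle ribosomes, fell by 0.40.

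The promoters were searched for letters of factors known at growth genes, on both strands of the 500 bases before the start codon. The Rap1 letters (caccc, any 2 bases, aca) were found before 29 of 137 members (21.2%), against 133 of 6000 promoters of that length (2.22%). In a window of 250 bases before to 50 after the start codon 6 members held them (4.38%), against 62 of 6001 promoters (1.03%). Of the members, 28 of 29 with a match and 95 of 108 without fell in BY4741 without phosphate, with medians of -0.30 and -0.34. The search finds only these exact letters. Members without a match may hold sites that depart from them, so the split does not separate bound from unbound promoters. The E-box cacgtg that Pho4 and Cbf1 bind was before 3 members (2.19%), against 6.23% of promoters, and the Abf1 letters (cgt, any 6 bases, tga) were before 24 members (17.5%), against 22.7%. The ribosome biogenesis letters gatgag (PAC) and aaaaatttt (RRPE) were before 30 and 13 members (21.9% and 9.49%), against 28.3% and 9.47% of promoters. The Reb1 letters ttacccg were before 7 members (5.11%), against 10.1%. Stretches of 50 bases around the Rap1 letters, in capitals, are given for RPL25, which fell in both strains, and for RPL7A, the major copy of a pair whose minor copy did not fall. They lie at chrXV:79930-79979 on the plus strand and chrVII:366219-366268 on the minus strand of R64, with the letters 398 and 252 bases before the start codon, and in RPL25 they read on the opposite strand.
RPL25 promoter: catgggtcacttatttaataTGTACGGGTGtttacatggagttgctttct
RPL7A promoter: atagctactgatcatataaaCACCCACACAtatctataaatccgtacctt

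In the spl2 deletion the response to phosphate removal had the same direction. Of the 137 members 126 fell and 1 rose, where 8.75% of 6033 features were lower and 57.3% were higher, and the median was -0.45 over the members and 0.23 over all features. The fall was found in 67 of 76 large-subunit genes, 55 of 56 small-subunit genes and 4 of 5 stalk genes. In 127 members all 3 libraries at 0 mM lay below both libraries at 7.2 mM, as they did in 11% of features. The 2 strains shared no library. In both, 117 members fell, 6 fell in BY4741 and not in the spl2 deletion, and 9 in the spl2 deletion and not in BY4741. The share of all features that fell in both is not given here. Of the features tested in BY4741 it can be at most the 6.68% that fell there. With TMM scaling, to which the shares of all features above do not apply, 135 fell and none rose. Without library 7 of the spl2 deletion at 7.2 mM, 120 members were called.

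RPL25 fell most, to 2951, 3247 and 3473 RPM in the spl2 deletion at 0 mM, against 6092 and 5688 RPM in the spl2 deletion at 7.2 mM, with a log2 change of -0.87 ± 0.093 (SE, adjusted p = 4.85e-06). RPL29, a small large-subunit gene, stood at 1536, 1444 and 1434 RPM in the spl2 deletion at 0 mM, against 3025 and 2089 RPM in the spl2 deletion at 7.2 mM, with a log2 change of -0.77 ± 0.14 (SE, adjusted p = 0.000306), which was -0.51 without library 7. RPS25A, whose protein takes part in initiation at internal entry sites, stood at 1913, 1841 and 2021 RPM in the spl2 deletion at 0 mM, against 3456 and 3066 RPM in the spl2 deletion at 7.2 mM. In each the groups were apart, though library 7 was the higher of the 2 at 7.2 mM. RPL41A stood at 97.3, 79.5 and 76.2 RPM in the spl2 deletion at 0 mM, against 201 and 100.2 RPM in the spl2 deletion at 7.2 mM, a log2 change of -0.75 ± 0.21 (SE, adjusted p = 0.00527) that rests on library 7, since without it the value was -0.25 and did not pass. RPS26B was again among the lowest at -0.73 ± 0.07 (SE, adjusted p = 1.74e-06).

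Some long members did not pass in the spl2 deletion. RPL3, whose protein reaches the peptidyl transferase centre, stood at 5194, 5350.4 and 5329 RPM in the spl2 deletion at 0 mM, against 5257 and 5468 RPM in the spl2 deletion at 7.2 mM, and its log2 fold change was -0.02 ± 0.058 (SE, adjusted p = 0.784). RPP0, the base of the stalk, was at -0.09, and the exit tunnel genes RPL4A and RPL4B were at 0.02 and 0.06, none past the test. RPL7B was the member that rose. It stood at 429, 416 and 429 RPM in the spl2 deletion at 0 mM, against 349.8 and 368 RPM in the spl2 deletion at 7.2 mM, a log2 change of 0.24 ± 0.055 (SE, adjusted p = 0.00126), which with TMM scaling was 0.01 and did not pass. RPL15B at 0.11 was next and did not pass. Beside the members, 16 of 18 regulator genes rose in the spl2 deletion without phosphate, with CBF1 at 1.28 and IFH1 at 0.65. Of the chaperones 13 of 18 rose and 2 fell, and of the translation factors 14 of 25 rose and 5 fell. Of all features 57.3% rose, and the medians of the lists were 0.46, 0.18 and 0.25, against 0.23 over all features. ASC1 and STM1 fell by 0.25 and 0.26.

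The spl2 deletion was then compared with BY4741 at each phosphate level. At 7.2 mM limma called none of the 137 members, as did edgeR and DESeq2, where 0.5% of 6002 features were called; 5 members had an unadjusted p below 0.05. The log2 fold changes ran from -0.10 for RPP0 to 0.52 for RPL41A. RPL41B and RPL29 followed at 0.35 and 0.31, and RPL9B and RPL4B stood at -0.10 and -0.09, and none of these passed. At 0 mM 1 member was called, where 13.1% of 6031 features were. This was RPL4B, at 1043, 1045 and 1015 RPM in the spl2 deletion at 0 mM, against 908, 891 and 915 RPM in BY4741 at 0 mM. The groups did not overlap, and the log2 fold change was 0.19 ± 0.053 (SE, adjusted p = 0.0265). RPL4A and RPP0 had values of 0.17 and 0.14, and RPS28B, RPS17A and RPS30B of -0.26, -0.24 and -0.24, without passing. The count at 0 mM depended on the libraries and the tool. It was 17 without BY4741 library 17 and 0 without any 1 of BY4741 libraries 14 and 16 or spl2 deletion libraries 12, 19 and 20, and DESeq2 called 9 members.

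The difference between the phosphate responses of the 2 strains was tested directly, as the change in the spl2 deletion minus the change in BY4741. It passed for 5 members, where 14.5% of 6071 features passed. RPL37B had a difference of -0.44 ± 0.12 (SE, adjusted p = 0.0236), with changes of -0.55 in the spl2 deletion and -0.11 in BY4741. RPS26A (-0.40), RPL42B (-0.34) and the ubiquitin fusion gene RPL40A (-0.29) also fell more in the spl2 deletion on this log2 scale, while RPL4B had a difference of 0.29 ± 0.079 (SE, adjusted p = 0.0255), with changes of 0.06 in the spl2 deletion, not past the test, and -0.23 in BY4741. RPL42B and RPL40A passed narrowly (limma adjusted p = 0.0498 and 0.0486). They did not pass with TMM scaling (0.0696 and 0.0723) or with scaling to reads outside the ribosomal protein genes (0.0662 and 0.0597). None of the 5 passed without BY4741 library 14 or 16 at 0 mM or spl2 deletion library 7 at 7.2 mM. Without BY4741 library 17, 23 members passed, and without spl2 deletion library 18, 14 did. Without any 1 of the other libraries of these groups, 2 to 8 passed, with 2 without BY4741 library 10 or spl2 deletion library 19, 3 without spl2 deletion library 12 and 8 without BY4741 library 11.

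In the comparisons that involve the spl2 deletion, the log2 changes of the members followed their coding length. Across the 137 genes, which share the same libraries and are not independent replicates, Spearman's correlation between coding length and the log2 difference of the strain responses was 0.82, and across 5594 other genes it was 0.57. For the spl2 deletion against BY4741 it was -0.77 at 7.2 mM and 0.73 at 0 mM among the members, and -0.38 and 0.59 among other genes. For the phosphate response it was 0.58 in the spl2 deletion and -0.21 in BY4741, against 0.59 and 0.08 among other genes. For the rrp6 deletion against BY4741 it was -0.14 among the members and -0.20 among other genes. The 36 members of at most 342 bases took 22.2% of the member reads in spl2 deletion library 7 and 20.3% in library 18 at 7.2 mM. They took 19.7%, 19.4% and 20.0% in the spl2 deletion at 0 mM. In BY4741 they took 21.6%, 21.4% and 19.6% at 0 mM, with the lowest value in library 17, and 20.5%, 19.2% and 20.4% at 7.2 mM. In these shares of the member reads the 2 strains overlapped at each phosphate level, whereas within the spl2 deletion the 2 phosphate levels did not overlap. Other genes of that length took 4.21%, 4.20% and 4.28% of the remaining reads in the spl2 deletion at 0 mM, below all 3 BY4741 libraries at 0 mM with 5.22%, 4.94% and 4.53%. At 7.2 mM they took 5.35% and 4.91% in the spl2 deletion, against 4.97%, 4.26% and 4.85% in BY4741, which overlap. The part of these shares in the differences between the strains was not tested.

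**Figure D3:**
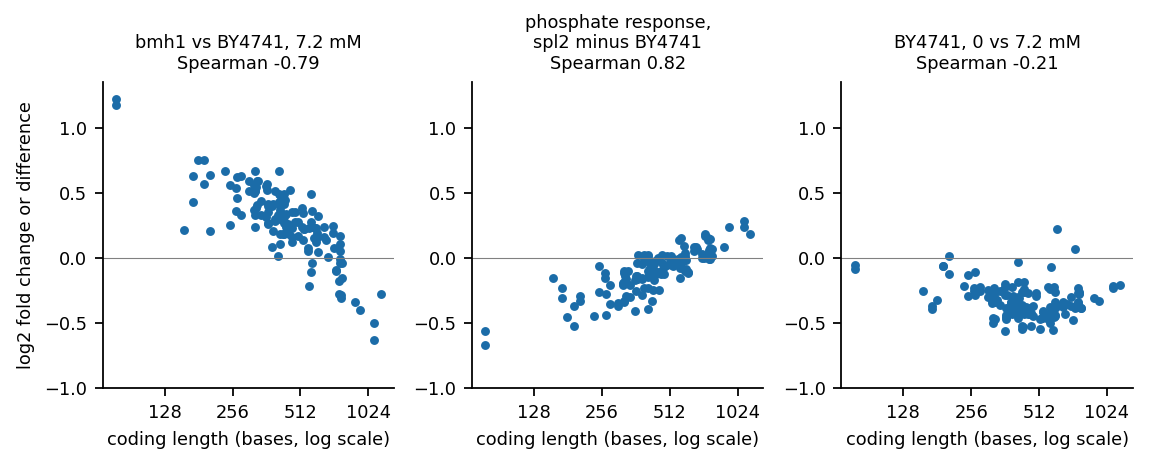
Log2 fold change, or difference of log2 fold changes, of each of the 137 members (vertical) against its coding length in bases on a log scale (horizontal). Spearman's correlation was -0.79 for the bmh1 deletion against BY4741, 0.82 for the strain difference in the phosphate response and -0.21 for BY4741 at 0 mM against 7.2 mM.

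In the bmh1 deletion, represented by 1 library, ribosomal protein transcripts were higher than in BY4741 at 7.2 mM. Of the 137 members 91 rose, 9 fell and 37 did not pass, where 15.2% of 5987 features were higher and 48.8% were lower. The median log2 fold change was 0.28 over the members and -0.22 over all features. By subunit 50 of 76 large-subunit, 37 of 56 small-subunit and 4 of 5 stalk genes rose. The test takes the lone library to vary like the groups with replicates. With TMM scaling, which raised the members' values by 0.23, 119 rose and 2 fell. The shares of all features above do not apply to that scaling.

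RPL41A and RPL41B changed most. RPL41A stood at 231 RPM in the bmh1 deletion, against 109.7, 91.1 and 95.1 RPM in BY4741 at 7.2 mM, and RPL41B at 418 RPM in the bmh1 deletion, against 185, 163 and 208 RPM in BY4741 at 7.2 mM. The log2 fold changes were 1.22 ± 0.26 (SE, adjusted p = 0.000909) and 1.17 ± 0.34 (SE, adjusted p = 0.00746). RPS30B, a short small-subunit gene, stood at 3262 RPM in the bmh1 deletion, against 2082, 1668 and 2077 RPM in BY4741 at 7.2 mM. RPL29 and RPL38 had log2 fold changes of 0.75 and 0.67. Among stalk genes RPP1A rose to 4902 RPM in the bmh1 deletion, against 3184, 2782 and 3312 RPM in BY4741 at 7.2 mM, a log2 change of 0.67 ± 0.099 (SE, adjusted p = 4.57e-05). In each of these genes the bmh1 deletion library lay above all 3 BY4741 libraries. The RPL41 genes also differed widely between the 2 spl2 deletion libraries at 7.2 mM of that experiment, with RPL41A at 100.2 and 201 RPM and RPL41B at 153 and 363 RPM. RPS30B stood at 2071 and 2672 RPM in those 2 libraries and RPP1A at 3036 and 3111 RPM.

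Of the 9 members that fell in the bmh1 deletion, 8 had a coding length of at least 711 bases. RPL4B stood at 683 RPM in the bmh1 deletion, against 1025, 1146 and 1012 RPM in BY4741 at 7.2 mM, and RPL4A at 1669 RPM in the bmh1 deletion, against 2353, 2508 and 2236 RPM in BY4741 at 7.2 mM. Their log2 fold changes were -0.63 ± 0.075 (SE, adjusted p = 8.1e-06) and -0.50 ± 0.082 (SE, adjusted p = 0.000102), and these 2 genes were the ones that still fell with TMM scaling. RPP0 was at -0.40, RPL5, whose protein carries the 5S ribosomal RNA, at -0.34, and RPL8A at -0.31. RPL8B, RPL3, RPS0B and RPL18B fell as well, RPL18B by 0.21, a value that was 0.02 with TMM scaling. Of the 36 members of at most 342 bases 34 rose and none fell, whereas of the 21 members of at least 711 bases 1 rose and 8 fell. Spearman's correlation of the log2 fold change with coding length was -0.79 among the members and -0.69 among 5545 other genes. The short members took 23.3% of the member reads in the bmh1 deletion library, against 19.2% to 20.5% in BY4741 at 7.2 mM, and other genes of that length took 6.96% of the remaining reads, against 4.26% to 4.97%. The medians of the members and of other genes of the same length were 0.53 and 0.37 in the short class. They were 0.27 and 0.17 in the middle and -0.10 and -0.33 in the long class. Single long members, among them RPL4B, RPL4A, RPP0 and RPL5, lay below the median of other long genes. The part of the length trend in the changes was not tested.

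Other genes of the pathway were lower in the same library. Of the 18 regulator genes 16 fell and none rose, with SFP1 at -0.71, FHL1 at -0.68, IFH1 at -0.59 and RAP1 at -0.51. Of 18 chaperones 12 fell and 3 rose, and of 25 translation factors 17 fell and 4 rose, among them the short genes SUI1 at 0.38 and TIF11 at 0.41. Of all features 48.8% were lower and 15.2% were higher. These lists had medians of -0.54, -0.34 and -0.43, against -0.22 over all features. Among genes other than the members, Spearman's correlation of the change with coding length was -0.69 in this library. The part of that trend in the values of these lists was not tested.

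In the rrp6 deletion a few members changed strongly and most did not pass. Of the 137 members 8 rose and 6 fell, where 15.9% of 6039 features were higher and 24.6% were lower. The median was 0.07 over the members and -0.08 over all features. All 14 belonged to A and B pairs, as did 118 of all 137 members. For 10 of the 14 the other copy was not called, where 123 of the 137 members were not called. Sequences across an exon-intron boundary are given for several of the called genes with introns, beside their other copy in 3 pairs, to show where the intron starts in each copy. The first 6 bases of the intron are in capitals. They are the same in RPL7A and RPL7B and differ between the copies of RPS14 and of RPL22.
RPL7A: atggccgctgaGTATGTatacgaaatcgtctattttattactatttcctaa
RPL7B: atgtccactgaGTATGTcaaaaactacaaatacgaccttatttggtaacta
RPS14A: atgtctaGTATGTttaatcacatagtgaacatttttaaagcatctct
RPS14B: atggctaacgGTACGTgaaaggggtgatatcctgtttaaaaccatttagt
RPL22A: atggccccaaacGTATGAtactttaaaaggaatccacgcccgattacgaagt
RPL22B: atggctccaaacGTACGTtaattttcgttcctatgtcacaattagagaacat
RPS22B: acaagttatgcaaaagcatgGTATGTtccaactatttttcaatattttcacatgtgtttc
RPS9A: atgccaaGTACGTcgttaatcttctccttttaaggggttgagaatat

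Of the 91 introns of the members 68 began with gtatgt, 14 with gtacgt, 5 with gtatga and 2 with gtatgc, and RPL30 and RPL20A each had a start of their own, gtcagt and gtgagt. The introns were between 147 and 561 bases long, with a median of 408. The boundaries shown lie at chrVII:365946-365996 (RPL7A, minus strand), chrXVI:173152-173202 (RPL7B, plus), chrIII:178174-178220 (RPS14A, minus), chrX:73787-73836 (RPS14B, plus), chrXII:263194-263245 (RPL22A, plus), chrVI:64881-64932 (RPL22B, minus), chrXII:856555-856614 (RPS22B, plus) and chrXVI:404950-404996 (RPS9A, plus) of R64. Of the 23 members with a start other than gtatgt 1 rose and 2 fell in the rrp6 deletion, and of the 66 with gtatgt 5 rose and 2 fell. Of the 48 members without introns 2 rose and 2 fell. The calls were thus spread over both kinds of intron and over genes with none.

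Among the genes that rose, RPL7B stood at 677 and 681 RPM in the rrp6 deletion, against 347 RPM in BY4741 of experiment 2, a log2 change of 0.97 ± 0.071 (SE, adjusted p = 1.21e-08). RPS14B, whose transcript is bound by its own protein in yeast, stood at 819.9 and 791 RPM in the rrp6 deletion, against 424 RPM in BY4741 of experiment 2, a change of 0.92 ± 0.076 (SE, adjusted p = 4.91e-08). RPL18B stood at 915 and 897 RPM in the rrp6 deletion, against 499.9 RPM in BY4741 of experiment 2, a change of 0.86 ± 0.083 (SE, adjusted p = 3.95e-07). Both rrp6 deletion libraries lay above the BY4741 library and close to each other in the 3 genes, which are all B copies. RPL15B, a minor copy without an intron, rose by 0.56, RPL33A by 0.39, RPL9A by 0.25, RPL2B by 0.21 and RPS4A by 0.20. The value of RPL33A is set against 445 RPM in the lone BY4741 library of experiment 2. For this gene that library lay below every BY4741 library at 7.2 mM of experiments 1 and 3. RPS4A, RPL2B, RPL9A and RPL33A did not pass with TMM scaling, which left 4 members higher and 7 lower.

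Among the genes that fell, RPL8A stood at 737 and 724 RPM in the rrp6 deletion, against 1355 RPM in BY4741 of experiment 2, a log2 change of -0.89 ± 0.072 (SE, adjusted p = 4.02e-08). RPS22B, whose pre-mRNA is a known substrate of the endonuclease Rnt1 in yeast, stood at 725 and 676 RPM in the rrp6 deletion, against 1121 RPM in BY4741 of experiment 2, a change of -0.68 ± 0.11 (SE, adjusted p = 0.000103). RPL22B, whose splicing is held back by Rpl22 protein, stood at 156 and 149 RPM in the rrp6 deletion, against 210.4 RPM in BY4741 of experiment 2, a change of -0.46 ± 0.082 (SE, adjusted p = 0.000302). RPL9B and RPS9A followed at -0.33 and -0.33. RPL30, whose protein binds its own pre-mRNA, was at -0.05 and did not pass. BY4741 is represented by 1 library in this comparison, so its own spread was taken from the groups with replicates in experiments 1 and 2. The small nucleolar RNAs encoded in introns of RPL7A, RPL7B and RPS22B (SNR39, SNR59 and SNR44) were listed at 0 RPM in all 3 libraries. Of the 18 regulator genes 2 rose and 8 fell, with YAK1 at -0.60 and CBF1 at -0.52, and of the chaperones 6 of 18 rose and none fell, with SYO1 and BCP1 at 0.41. Of 25 translation factors 1 rose and 6 fell. These counts stand beside 15.9% of all features higher and 24.6% lower, and the medians were -0.22, 0.04 and -0.08, against -0.08 over all features.

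The A and B copies were then set against each other within a library, as the log2 ratio of A to B. In 54 of the 59 pairs the copies have equal coding length, and in the others they differ by at most 12 bases. The encoded proteins were identical in 21 pairs and at least 99% identical in 33, and the coding sequences had a median identity of 93.2%, from 69.2% to 99.4%. How reads that match both copies were counted is not given in the sources used here, so each value for a pair is uncertain to that extent. In BY4741 at 7.2 mM the A copy took between 10.0% (RPS9) and 98.4% (RPL15) of the reads of its pair. The A copy was the larger in 33 pairs, the 2 copies were within 40% to 60% in 20, and the most even pair was RPL33 with 49.6% ± 0.65 for A (SD, n = 3).

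Without phosphate, the balance of 20 of the 59 pairs changed in BY4741, 9 toward A and 11 toward B, where 47.7% of 575 paralogue pairs of the genome changed. The median size of the log2 difference was 0.07 in the ribosomal protein pairs and 0.19 in the other pairs. RPL15 changed most: RPL15B took 2.45, 2.36 and 2.44% in BY4741 at 0 mM, against 1.59, 1.69 and 1.56% in BY4741 at 7.2 mM, and the log2 difference, A minus B, was -0.59 ± 0.042 (SE, adjusted p = 2.52e-07). In this pair A fell and B rose past the test. For RPL7, copy B took 18.6, 18.1 and 19.5% in BY4741 at 0 mM, against 14.4, 14.3 and 14.6% in BY4741 at 7.2 mM, a difference of -0.45 ± 0.052 (SE, adjusted p = 2.25e-05). For RPL9 copy B took 30.9, 30.4 and 31.9% in BY4741 at 0 mM, against 25.7, 26.6 and 25.1% in BY4741 at 7.2 mM. In all 3 pairs the minor copy gained share in every library without phosphate. RPL9 had a difference of -0.37, whereas RPS9 at 0.33 and RPS26 at 0.27 changed toward A.

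In the spl2 deletion 22 pairs changed without phosphate, 8 toward A and 14 toward B, where 36.7% of 577 pairs of the genome did. Without library 7 at 7.2 mM 14 pairs changed. Of the 20 pairs that changed in BY4741, 11 also changed in the spl2 deletion, all toward the same copy, and 18 had the same sign. The same counts over all paralogue pairs of the genome are not given here. The overlap is therefore not shown to be particular to the ribosomal protein pairs. RPL15 was at -0.58 ± 0.047 (SE, adjusted p = 2.02e-06), RPS9 at 0.44, RPL7 at -0.44, RPL22 at -0.37 and RPS27 at 0.36. For RPL7, A fell and B rose past the test, and copy B took 18.1, 18.3 and 19.6% in the spl2 deletion at 0 mM, against 13.8 and 15.2% in the spl2 deletion at 7.2 mM. The groups were apart in this pair, with the minor copy higher in share without phosphate.

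In the rrp6 deletion 15 pairs changed, 5 toward A and 10 toward B, where 42.4% of 576 pairs of the genome did, and the median size of the difference was 0.09 in these pairs and 0.27 in other pairs. RPL7B took 22.0 and 21.6% in the rrp6 deletion, against 12.5% in BY4741 of experiment 2, a log2 difference, A minus B, of -0.96 ± 0.075 (SE, adjusted p = 3.22e-07). Copy A of RPL8 took 27.5 and 26.1% in the rrp6 deletion, against 40.3% in BY4741 of experiment 2, a difference of -0.88 ± 0.048 (SE, adjusted p = 7.11e-09). Both pairs moved toward B, in RPL8 through a lower A and in RPL7 through a higher B. RPS14 and RPL15 also moved toward B, with differences of -0.78 and -0.71. RPS22B took 20.3 and 19.6% in the rrp6 deletion, against 30.6% in BY4741 of experiment 2, a difference toward A of 0.82 ± 0.092 (SE, adjusted p = 8.22e-06). RPL22 and RPL9 moved toward A as well, at 0.70 and 0.58, and in RPL9 the copies passed in opposite directions. In a separate run of the test that left out pairs at 99% protein identity or more, 8 of the remaining ribosomal protein pairs were called.

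**Figure D4:**
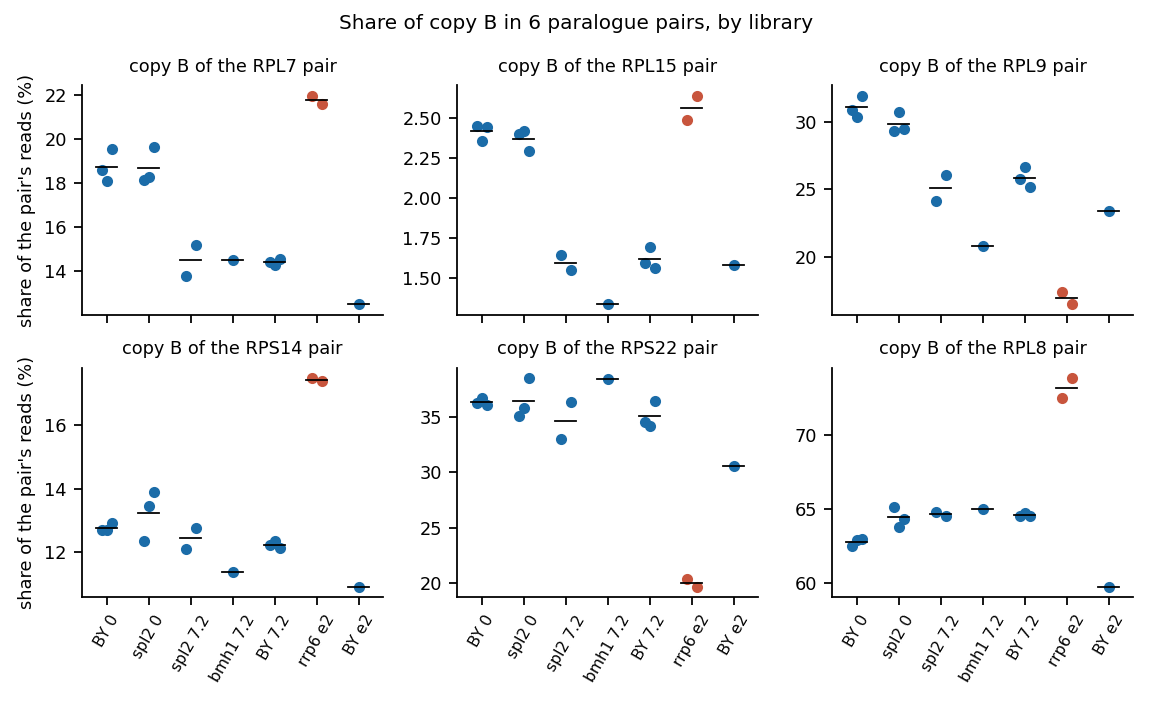
Share of the reads of a pair, in percent, that fell on copy B in 6 pairs; each point is 1 library and each line a group mean, with the phosphate level in mM after the strain name and e2 for experiment 2 (7.2 mM), where rrp6 is in red and BY is BY4741. Copy B of RPL7 took 21.6% to 22.0% in the rrp6 deletion, against 12.5% in BY4741 of that experiment.

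In the bmh1 deletion 22 of the 59 pairs changed, 16 toward A and 6 toward B, where 37.7% of 573 paralogue pairs of the genome did. This test was added after seeing the data, and the lone bmh1 deletion library was taken to vary like the other groups. The largest change was in RPS7, a small-subunit pair, with a log2 ratio of A to B of 0.60 ± 0.065 (SE, adjusted p = 6.37e-05) in the bmh1 deletion minus BY4741. RPS7A took 87.0% in the bmh1 deletion, against 81.5, 80.6 and 82.2% in BY4741 at 7.2 mM. RPL9A took 79.2% in the bmh1 deletion, against 74.3, 73.4 and 74.9% in BY4741 at 7.2 mM. The change in RPL9 was 0.41 ± 0.065 (SE, adjusted p = 0.000751). RPS28 and the stalk pair RPP1 moved toward A by 0.43 and 0.43, and RPL26 moved toward B, with a value of -0.32.

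The promoter strain ΔP was set beside BY4741 with 1 library each and is described with no test. None of the 137 members differed by 1.5-fold or more, where 3.63% of 5785 features were higher and 0.674% were lower by that much. The log2 ratios ran from -0.52 to 0.18, with a median of -0.05. RPL41A stood at 236 RPM in the ΔP strain, against 339 RPM in BY4741 of experiment 3, a ratio of reads of 0.697 (exact 95% interval 0.679 to 0.716, counting error only). RPL4B at -0.35, RPL8A at -0.33, RPS14B at -0.30 and RPL41B at -0.29 followed on the log2 scale, and RPL38 and RPL36A were highest at 0.18 and 0.14.

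BY4741 at 7.2 mM was sequenced in all 3 experiments, and some members had different levels in them. Between experiment 3 and the mean of experiment 1, 7 of 137 members lay over 2-fold apart, as did 6.97% of 5607 features with at least 1 RPM in both. Between experiment 2 and that mean it was 2 of 137 members and 1.94% of 5916 features, so the members' share was near that of all features in both cases. RPL39, which encodes a very small protein of the exit tunnel, stood at 2388 RPM in BY4741 of experiment 3, 75.9 RPM in BY4741 of experiment 2 and 199, 199 and 233 RPM in BY4741 at 7.2 mM of experiment 1, so that experiment 3 was 11.3-fold above the mean of experiment 1. RPL41B stood at 675 RPM in experiment 3, against 163 to 208 RPM in experiment 1. The stalk gene RPP2B went the other way, with 1195 RPM in BY4741 of experiment 3, 5216 RPM in BY4741 of experiment 2 and 4773, 4088 and 4779 RPM in BY4741 at 7.2 mM of experiment 1. RPL33A stood at 2215 RPM in BY4741 of experiment 3, 445 RPM in BY4741 of experiment 2 and 954, 821 and 927 RPM in BY4741 at 7.2 mM of experiment 1, and the A share of its pair was 73.0%, 31.0% and 49.6%. With 1 library in experiments 2 and 3, culture and experiment cannot be told apart, and for that reason each comparison was kept within its experiment.

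**Figure D5:**
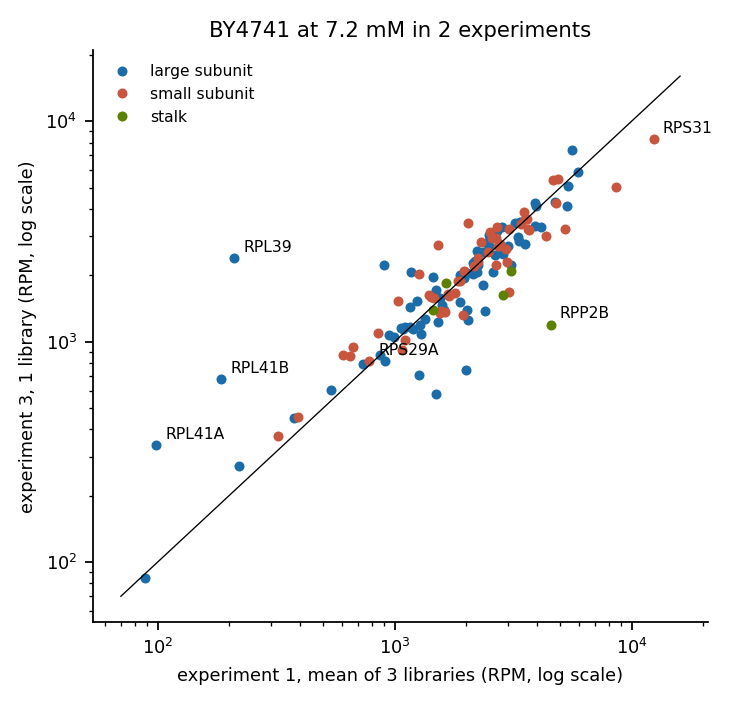
Level of each member in BY4741 at 7.2 mM, in RPM on log scales, in the 1 library of experiment 3 (vertical) against the mean of 3 libraries of experiment 1 (horizontal); the line marks equal levels. RPL39 lies 11.3-fold above the line and RPP2B 3.81-fold below it.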

How the data were processed

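The deposited table gives, per the file headers, RPM, reads scaled by the authors to a common library total, for 7125 features in 17 libraries. Per the labels' protocols the libraries were stranded mRNA libraries sequenced on a HiSeq 2500. Not given in the sources used here were the aligner, the counter, the build and the handling of reads that match several genes. Every RPM value was a whole multiple of the value of 1 read in its library within 0.001, so reads were recovered; they set the depth and the count tests.

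Libraries were grouped by their labels. The main test was limma 3.58.1 with a trend on log2(RPM + 1), over features that reached 1 RPM in a number of libraries equal to the size of the smaller group (at least 2), with Benjamini-Hochberg adjustment over all features tested and a threshold of 0.05. The 12 libraries of experiment 1 shared an estimate of spread; the rrp6 deletion was fitted with the 15 libraries of experiments 1 and 2 and compared within experiment 2. A group of 1 library was taken to have the same spread. For ΔP reads were compared by exact 95% intervals, which cover counting error only.

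Pairs were tested by limma on the log2 ratio of the copies over 621 paralogue pairs of the genome, which were the 59 A and B pairs and reciprocal best blastp 2.17.0 matches of at least 30% identity over 70% of the longer protein. The design fixed for this test called for a protein table and for no pair test without one. No such table was used here, and proteins were translated from RefSeq R64 coding sequences instead, a departure from that design. The pair test of the bmh1 deletion was added after seeing the data. Coordinates and sequences are those of RefSeq R64, and features were matched by name.

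The members, the gene lists and the tests were chosen with earlier results of these data known. Genes were named by a rule: up to 5 highest and 5 lowest past the threshold in each comparison, 3 in a direction with fewer than 3, each member that rose without phosphate, and the 6 pairs that changed most. Results for 1 member and its pair that met this rule are not reported here. Other named genes were chosen after their values were seen, as was the window of 500 bases for motifs, which was added to the planned window of 250 before to 50 after. Alternatives were other pseudocounts (0.1 and 5), no filter, TMM, scaling to reads outside these genes, edgeR 4.0.16 and DESeq2 1.42.0 on recovered reads, fits of the compared groups alone, leaving out each library, and leaving out pairs at 99% protein identity. The tests were tested on simulated data.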

Additional observations from a re-analysis of the deposited data

Results flagged for a closer look

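The response to phosphate removal differed between the spl2 deletion and BY4741 in 5 of 137 members by a direct test of the difference. Of all 6071 features 14.5% passed this test, so the members did not stand out by their number. Differences are given as the log2 change in the spl2 deletion minus that in BY4741. RPL37B differed by -0.44, with changes of -0.55 in the spl2 deletion and -0.11 in BY4741. RPS26A differed by -0.40 (-0.69 and -0.29), RPL42B by -0.34 (-0.60 and -0.26) and RPL40A by -0.29 (-0.50 and -0.22), with the spl2 deletion first. RPL4B differed by 0.29, with changes of 0.06 in the spl2 deletion and -0.23 in BY4741. RPL42B and RPL40A did not pass with TMM scaling or with scaling to reads outside the ribosomal protein genes. None of the 5 passed without BY4741 library 14 or 16 at 0 mM, or without spl2 deletion library 7 at 7.2 mM. Among the members the difference followed coding length, with a Spearman correlation of 0.82 over 137 genes, and the part of that trend was not tested.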

How the results depend on the processing

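No paired analysis was possible because the groups compared share no replicate number. For BY4741 at 0 mM against 7.2 mM, the spl2 deletion at 0 mM against 7.2 mM, the bmh1 deletion and the rrp6 deletion, the number of members called stayed within 1.5 times under every alternative run. Leaving out 1 library each gave 110 to 126 members called in BY4741, 120 to 129 in the spl2 deletion, 95 to 100 in the bmh1 deletion and 10 in the rrp6 deletion. For the spl2 deletion against BY4741 at 7.2 mM, where none was called, a fit of those groups alone called 1 and leaving out a library 0 to 2, with 2 without spl2 deletion library 18. At 0 mM, where 1 was called, edgeR called 2, DESeq2 9, a fit of those groups alone 4, and leaving out a library 0 to 17. For the strain difference, where 5 were called, no filter, TMM and scaling to reads outside the ribosomal protein genes each called 3, DESeq2 15, and leaving out a library 0 to 23. Without pairs at 99% protein identity or more, 9 pairs were called in BY4741, 9 in the spl2 deletion, 8 in the bmh1 deletion and 8 in the rrp6 deletion. Leaving out a library gave 15 to 20 pairs in BY4741, 14 to 20 in the spl2 deletion (14 without library 7 at 7.2 mM), 16 to 17 in the bmh1 deletion and 13 to 14 in the rrp6 deletion. The cause was not tested, apart from the smaller number of pairs or libraries that some alternatives leave. In the rrp6 deletion, scaling to reads outside these genes gave 10 members higher and 5 lower. RPL18B in the bmh1 deletion was at -0.21 and at 0.02 with TMM scaling, and no other called member or pair changed sign under the alternatives run. The 62 named results were each followed over the alternatives. Of these combinations of a result and an alternative, 53 lost the threshold and 611 stayed the same. At these depths every member had at least 74.9 RPM, and the number of libraries per group, 1 to 3, limits the precision.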
